A study of Mus musculus with 6 samples.

Results

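The transcripts of 5 genes of the high-mobility-group (HMG) box family, Tcf7, Lef1, Tox, Tox2 and Sox4, were followed through RNA sequencing of stage 0 invariant natural killer T (iNKT) cells, the earliest iNKT cells found in the thymus after positive selection. They were taken by symbol from a table of 48397 genes, and all 5 passed the filter on low counts that left 12312 genes for testing. Stage 0 cells had been sorted from thymi as binding the PBS57–CD1d tetramer, CD24+ and CD69+, CD44-, CD8- and low or negative for CD4. BALB/c mice, wild type, were compared with SKG mice, which carry a hypomorphic mutation of the T cell receptor (TCR) kinase Zap70 on the same BALB/c background. All mice were 8 to 10 weeks old. Each genotype had 3 libraries, each from about 1000 cells of 3 pooled thymi, so a replicate was a pool of mice and no value belongs to a single animal. The comparison addresses which transcripts differ in iNKT precursors when TCR signaling is reduced.

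HMG-box proteins bind the minor groove of DNA and bend it. TCF-1, the product of Tcf7, and LEF-1, the product of Lef1, are closely related proteins that recognize the same core motif, bind β-catenin or Groucho/TLE corepressors, and are needed for T cell development, iNKT cells included. TOX is induced by TCR signaling in selected thymocytes and is required for the CD4 lineages and for iNKT cells, TOX2 is its close relative, and SOX4 is a single-exon gene's product that acts in early lymphocyte and iNKT cell development.

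The core motif of TCF-1 and LEF-1, CTTTGA or CTTTGT, was looked for in promoter windows of the HMG-box genes. Shown are 3 windows: the Lef1 start with most matches, its outermost start and the single start of Sox4. The RefSeq promoter table on GRCm38.p6 held 12 starts for 4 of the 5 genes, of which Tcf7 had 2, Lef1 had 4, Tox2 had 5 and Sox4 had 1. Each window holds the 250 bases before a start, and capitals mark a match to either motif on either strand.
Lef1, outermost start, chr3:131110047-131110296, plus strand: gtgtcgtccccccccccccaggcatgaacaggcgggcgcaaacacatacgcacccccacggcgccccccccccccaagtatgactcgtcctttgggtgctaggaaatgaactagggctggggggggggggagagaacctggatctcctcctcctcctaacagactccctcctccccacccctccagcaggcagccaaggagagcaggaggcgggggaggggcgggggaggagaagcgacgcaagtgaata
Lef1, innermost start, chr3:131156044-131156293, plus strand: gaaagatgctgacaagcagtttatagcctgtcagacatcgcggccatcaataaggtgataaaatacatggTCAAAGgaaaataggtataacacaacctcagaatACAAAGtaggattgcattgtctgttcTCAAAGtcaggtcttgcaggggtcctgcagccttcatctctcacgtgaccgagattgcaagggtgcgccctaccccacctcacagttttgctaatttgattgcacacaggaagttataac
Sox4, chr13:28953700-28953949, minus strand: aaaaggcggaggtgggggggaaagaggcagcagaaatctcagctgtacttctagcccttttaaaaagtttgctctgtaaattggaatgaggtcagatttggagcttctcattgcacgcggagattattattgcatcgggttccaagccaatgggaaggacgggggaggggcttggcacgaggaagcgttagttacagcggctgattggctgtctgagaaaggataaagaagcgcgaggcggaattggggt
The innermost Lef1 window held 2 matches to CTTTGA and 1 to CTTTGT, and the outermost Lef1 window and the Sox4 window held none. Of the windows not shown, both of Tcf7 and the others of Lef1 held none, and 2 of the 5 Tox2 windows, which start 1 base apart, held the same match to CTTTGA. Both Tcf7 windows lie inside the RefSeq gene, whose outer end is at 52283383, so the bases before that end were not searched. Among all 32851 windows of the table, 13.8% held CTTTGA, 16.5% held CTTTGT and 27.6% held either, so such a match is common. A match is a description of letters, and the counts, summed over each gene, do not say which start was used.

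In the whole experiment, 37176544 to 43115544 reads were counted on genes per library, and 10835 to 14791 genes had at least 10 reads. The Zap70 mutation of SKG mice is a point change that gene counts do not show. The T cell markers Trac and Cd3e had 26402 to 37840 and 33039 to 45208 reads per library, while Tbx21, a marker of mature iNKT1 cells, had 0 reads in every library. Levels are given as CPM, a gene's reads scaled by the library's TMM-normalized total. Of the genes that define the sort, Cd69 ranged from 312 to 391.5 CPM in BALB/c and from 152 to 250 CPM in SKG libraries, Cd24a overlapped, and Cd44 stayed at or below 536 reads. The libraries were not uniform in other cell types. Markers of CD4+CD8+ double-positive thymocytes summed to 380 CPM in BALB/c replicate 1 and to 68.1 to 211 CPM in the other libraries, and that library had 1438 reads of Rag1 and 1044 of Rag2, against at most 379 and 398 in any other library. It also held the hemoglobin reads, with erythroid markers at 69.7 CPM against at most 1.57 elsewhere. Markers of mature conventional T cells summed to 116 to 149 CPM in BALB/c and 160 to 299 CPM in SKG, through Klf2, the 1 of 5 that did not overlap. Markers of γδ T cells summed to 12.7 to 29.7 CPM in BALB/c and 35.04 to 87.6 CPM in SKG, through Tcrg-C2 and Tcrg-C4, 2 of 5, while Trdc, which encodes the δ constant region, overlapped. Markers of later iNKT stages summed to 169 to 289 CPM in BALB/c and 202 to 305 CPM in SKG, mostly from Il2rb at means of 224 and 240 CPM. Thymic epithelial markers summed to 28.5 to 56.1 CPM in BALB/c and 14.5 to 99.4 CPM in SKG, through Epcam and Ccl25, while Psmb11 and Krt5 had 0 reads in every library. Sums of B cell, myeloid and erythroid markers overlapped as well. Single markers of these lists also stood higher in every BALB/c library. They were Nkg7 of the later iNKT stages (means of 11.7 CPM in BALB/c and 1.45 CPM in SKG) and Fcer1g of the myeloid list (10.9 and 2.80 CPM). Hba-a1 of the erythroid list did so only nominally, at means of 6.70 and 0.00858 CPM, and was not tested. In BALB/c replicate 2 all erythroid markers summed to 0.027 CPM, the value of 1 read, and the BALB/c SD of Hba-a1 was 11.2 CPM.

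Tcf7 showed the largest difference of the 5 genes. The gene lies on GRCm38 chromosome 11, 52252371 to 52283014, minus strand. It had 14808, 6483 and 8316 reads in BALB/c replicates 1 to 3, which is 359, 175 and 184 CPM. In SKG replicates 1 to 3 it had 29497, 34298 and 31672 reads, which is 732, 882 and 876 CPM. Every SKG library stood above every BALB/c library, and BALB/c replicate 1, the library rich in double-positive markers, stood above the other BALB/c libraries. The means were 239 ± 104 CPM in BALB/c and 830 ± 84.9 CPM in SKG (SD, n = 3 each). The fitted log2 fold change, SKG over BALB/c, was 1.79 with a standard error of 0.31 and a 95% interval of 1.06 to 2.53, a 3.47-fold difference with bounds of 2.09 and 5.77. Among 12312 genes Tcf7 ranked number 15 by its p in edgeR's quasi-likelihood test, and its adjusted p over all genes was 0.617, so it was not called. An exact two-sided permutation test over the 6 libraries gave p = 0.1, the smallest that 3 against 3 allow.

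The size of the Tcf7 difference depended little on a single library, and its call depended on the test. Without BALB/c replicate 1 the log2 fold change was 2.22, and leaving out any other library gave no value below 1.61. Refitted with DESeq2, Tcf7 was called with a log2 fold change of 1.82 and an adjusted p of 0.000921. In bulk libraries, more cells with a transcript and more transcript per cell cannot be told apart. Markers of mature conventional and γδ T cells were also higher in SKG, and their part in the Tcf7 difference was not tested. The summed γδ markers were 35.44, 35.04 and 87.6 CPM in SKG replicates 1 to 3.

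**Figure D1:**
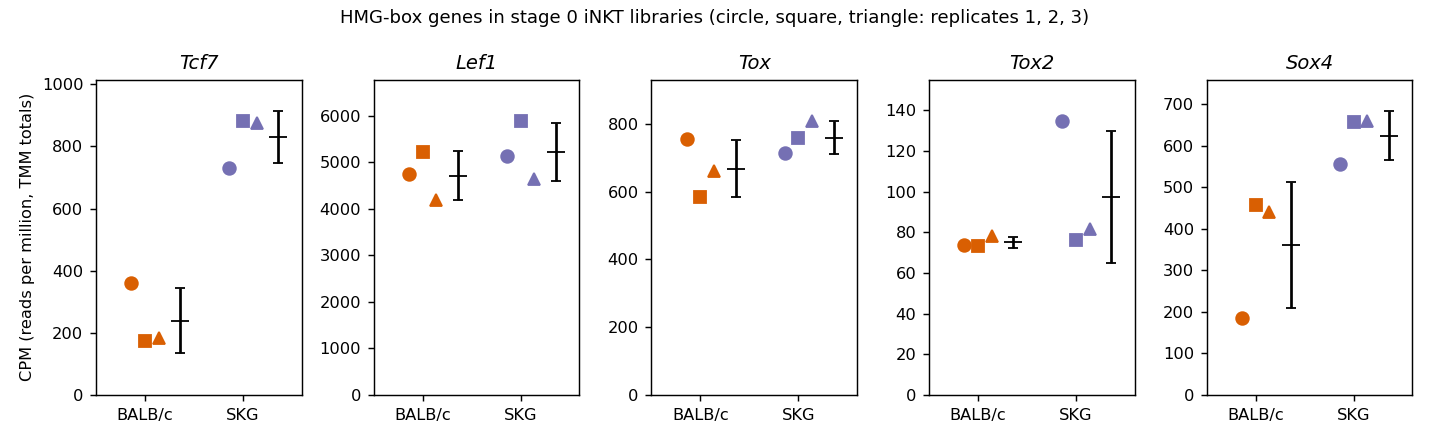
Each panel plots one gene's CPM (linear axis from 0) in the 3 BALB/c and 3 SKG libraries, with the mean and SD of each genotype beside the points. Tcf7 and Sox4 are higher in each SKG library than in any BALB/c library, Lef1 and Tox overlap, and Tox2 stands out in SKG replicate 1 at 135 CPM.

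Lef1, the partner most like Tcf7, had far more reads and no such separation. It lies on chromosome 3, 131110471 to 131224356, plus strand. Its reads were 195724, 193410 and 188703 in the BALB/c libraries, or 4745, 5214 and 4178 CPM. The SKG libraries held 206919, 228837 and 167814 reads, or 5136, 5887 and 4640 CPM. SKG replicate 2 was highest and BALB/c replicate 3 lowest, and the genotypes overlapped. Lef1 ranked between 1 and 6 by reads among all genes in each library, and its mean CPM over the 6 libraries ranked 2 of 48397. The genotype means were 4713 ± 519 CPM and 5221 ± 628 CPM (SD, n = 3 each). The log2 fold change was 0.15 with an interval of −0.18 to 0.48, which at its upper bound is a 1.395-fold difference, and the adjusted p in edgeR's test was 0.991.

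Since counts per gene grow with transcript length, the balance of the pair was read per kilobase of exon. The level of Tcf7 divided by that of Lef1 took values of 0.253, 0.112 and 0.148 across BALB/c, and SKG values of 0.477, 0.502 and 0.632. The ratio was thus higher in each SKG library than in any BALB/c library. Its means were 0.171 ± 0.0734 and 0.537 ± 0.0831 (SD, n = 3 each), a difference of 1.72 on the log2 scale (p = 0.1, exact two-sided permutation test, the smallest possible). The ratio needs no scaling between libraries. With coding length in place of exon length, its means were 0.0718 and 0.225, so its level depends on the length used. Its log2 difference between genotypes is the same by construction, because a gene's length is the same in every library. Per library, Lef1 exceeded Tcf7 by either length in all 6 libraries.

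Sox4 was the second gene whose libraries did not overlap. It lies on chromosome 13, 28948919 to 28953713, minus strand, in a single annotated transcript. Its reads were 7676, 16981 and 19884 in BALB/c, or 186, 458 and 440 CPM, and 22440, 25534 and 23879 in SKG, or 557, 657 and 660 CPM. BALB/c replicate 1 was far below every other library, and the other 2 BALB/c libraries came closer to SKG replicate 1. The means were 361 ± 152 CPM and 625 ± 58.7 CPM (SD, n = 3 each). The log2 fold change was 0.79, with a standard error of 0.34 and an interval of −0.02 to 1.599, and the adjusted p in edgeR's test was 0.932. The permutation test gave its smallest possible p, 0.1 (exact, two-sided). Without BALB/c replicate 1, the log2 fold change was 0.48. That library had the highest sum of double-positive and of erythroid markers, and their part in its Sox4 level was not tested. Sox4 also stood lower relative to Lef1 in BALB/c, at 0.0719, 0.161 and 0.193 per exon length against 0.199, 0.205 and 0.261 in SKG, where the highest BALB/c value and the lowest SKG value lay close together.

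The paired TOX genes differed less. Tox, on chromosome 4, 6686353 to 6991557, minus strand, had 31085, 21711 and 29898 reads in BALB/c, or 754, 585 and 662 CPM. In SKG it had 28701, 29429 and 29244 reads, or 712, 757 and 809 CPM. The genotypes overlapped, with BALB/c replicate 1 above SKG replicate 1. Means were 667 ± 84.3 CPM and 759 ± 48.2 CPM (SD, n = 3 each), the log2 fold change was 0.19 with an interval of −0.15 to 0.52, and the adjusted p in edgeR's test was 0.991.

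Tox2, on chromosome 2, 163203125 to 163324170, plus strand, was the least abundant of the 5. It had 3044, 2718 and 3529 reads in BALB/c, or 73.8, 73.3 and 78.1 CPM. In SKG it had 5429, 2951 and 2956 reads, or 135, 75.9 and 81.7 CPM. A single library, SKG replicate 1, stood above the rest, and the remaining 5 lay between 73.3 and 81.7 CPM. The log2 fold change was 0.38 with an interval of −0.29 to 1.05, the adjusted p in edgeR's test was 0.991, and the value was 0.07 without SKG replicate 1. That library also had the most genes with at least 10 reads, 14791, and the part of this in its Tox2 level was not tested. The level of Tox2 relative to Tox per exon length was 0.254 ± 0.0316 in BALB/c and 0.291 ± 0.114 in SKG (SD, n = 3 each; p = 0.8, exact two-sided permutation test).

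Taken per kilobase of exon, the means below Lef1 stood in another order in each genotype. In BALB/c, Lef1 stood at 536 ± 59.0 CPM per kb, followed by Tcf7 at 91.2 ± 39.5, Tox at 87.7 ± 11.1 and Sox4 at 75.4 ± 31.7, whose means lay within their spreads of each other, and then by Tox2 at 22.1 ± 0.784. In SKG, Lef1 stood at 594 ± 71.4, Tcf7 at 316 ± 32.4, Sox4 at 130 ± 12.2, Tox at 99.8 ± 6.33 and Tox2 at 28.7 ± 9.53 (SD, n = 3 each). Tcf7 exceeded Tox in 1 of 3 BALB/c and 3 of 3 SKG libraries, and it exceeded Sox4 in the same numbers of libraries. Sox4 exceeded Tox in 2 of 3 BALB/c and 3 of 3 SKG libraries. By coding length instead, Tox stood above Tcf7 and Sox4 in the BALB/c means, at 423, 263 and 274 CPM per kb, and Tox and Sox4 at 481 and 473 could not be separated in SKG. Only the places of Lef1 at the top and Tox2 at the bottom held in every library with either length. RefSeq places the Tcf7 gene at 52246527 to 52283383, beyond both ends of the model used for its length, so its level per length is uncertain. The level of Sox4 per length is uncertain as well, since reads shared with an overlapping gene may be missing from it.

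**Figure D2:**
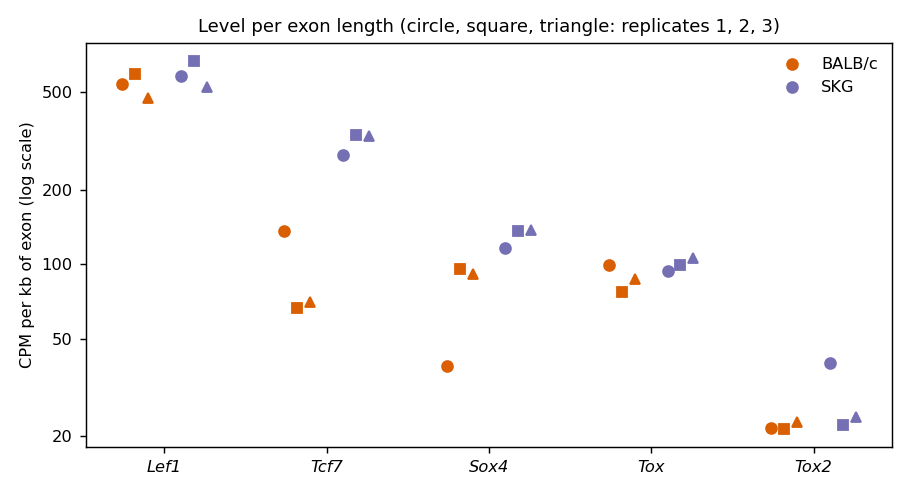
The CPM per kb of exon (log axis) is plotted for each gene and library, BALB/c and SKG side by side, with 1 symbol per replicate. Lef1 lies between 475 and 670 in all 6 libraries and Tox2 between 21.5 and 39.6, while Tcf7 goes from 66.6 to 137 in BALB/c to between 279 and 336 in SKG.

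Across the 5 genes, none was called in edgeR's test, where a call needed a 1.5-fold difference and a Benjamini-Hochberg FDR under 0.1, against a background of 0 genes called of 12312, or 0%. At an unadjusted p under 0.05, 1 of the 5 genes passed, Tcf7, against 671 genes or 5.45% of all tested, and 378 or 3.07% with SKG higher. Limma-voom also called 0 genes, with 968 at an unadjusted p under 0.05, whereas DESeq2 called 370 without and 231 with shrinkage, and Tcf7 was the only member called by either. Libraries did not overlap for 2 of the 5 genes, Tcf7 and Sox4, both with SKG higher, against 13.9% of all genes in either direction, 6.77% with SKG higher and 7.12% with BALB/c higher. The fitted log2 fold change was above 0 for all 5 genes, with a median of 0.38 against −0.02 over all genes tested. The 5 genes were chosen with results of these data known, so these shares describe them and support no direction.

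**Figure D3:**
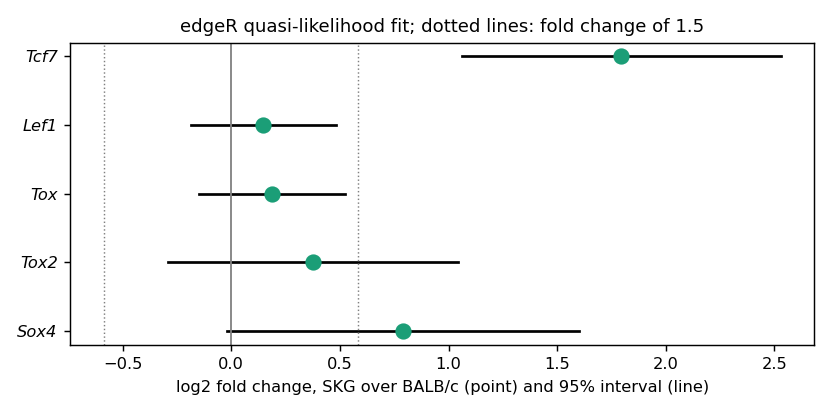
Points show the log2 fold change (SKG over BALB/c) of each gene in edgeR's fit and lines its unadjusted 95% interval, with dotted lines at a 1.5-fold difference. The interval of Tcf7, 1.06 to 2.53, lies above 0, that of Sox4 reaches −0.02, and those of Lef1, Tox and Tox2 span 0.

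Counting without regard to strand leaves an uncertainty in 3 of the rows. The antisense gene Gm43352 overlaps 13.7% of Lef1's exon bases and had 1300 to 1707 reads of its own per library, against at least 167814 for Lef1. Gm11802, antisense to Tox, overlaps 3.42% of its exon bases and had 1 to 79 reads. Gm26735, on the opposite strand, overlaps 54.6% of Sox4's exon bases and had 0 reads in all 6 libraries. With strand ignored, the 0 reads of Gm26735 mean that reads shared with Sox4 were not credited to both genes. This holds if the authors' annotation had the same overlap. Whether shared reads of such a pair were left out of both genes is not given in the sources used here. The Sox4 level may thus leave out part of its transcript, and its level per kb of exon may be too low. Tcf7 and Tox2 had no overlapping gene on either strand in their exons.

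The rest of the HMG-box family gave a background of related genes. Of 34 further genes, 22 were tested, and 0 were called in edgeR's test. At an unadjusted p under 0.05, 2 were higher in SKG and 0 in BALB/c, and libraries did not overlap for 3, all higher in SKG. That is 13.6% of the 22, against 13.9% of all genes tested, and the 2 genes at the unadjusted threshold stand against 5.45% of all genes. The median log2 fold change of the 22 was 0.04. The closest relatives of Tcf7 and Lef1 were both low: Tcf7l1 (TCF-3) was counted 95, 433 and 473 times across BALB/c, against 951, 672 and 556 times across SKG, with a log2 fold change of 1.20 ± 0.81 (SE), and Tcf7l2 (TCF-4) had 26 to 420 reads and overlapped. Thus Lef1 and Tcf7 held nearly all reads of the TCF/LEF family. Among relatives of Tox, Tox3 had 3 reads in 1 library and 0 in the others. Tox4, a broadly expressed member, had 155, 213 and 218 CPM in BALB/c and 275, 289 and 287 CPM in SKG, a log2 fold change of 0.54 ± 0.17 (SE) with an adjusted p of 0.830 in edgeR's test. Sox4 was the main SOX gene: of 12 other SOX genes only Sox5 was tested, with 0 to 579 reads, and Sox7 and Sox15 had 0 reads in every library. Hmgxb3, an HMG-box gene of little-known function, had 67.6 to 84.9 CPM in BALB/c and 120 to 151 CPM in SKG, with a log2 fold change of 0.84 ± 0.20 (SE) and an adjusted p of 0.642 in edgeR's test. The abundant chromatin proteins Hmgb1, Hmgb2 and Hmgb3 overlapped, with log2 fold changes of −0.15, −0.34 and 0.03.

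TCF-1 and LEF-1 act with β-catenin when Wnt signaling is on and with TLE corepressors when it is off, and a list of 41 such partners and pathway genes was counted in the same way. Of 27 tested, 0 were called in edgeR's test, 2 were higher in SKG and 0 in BALB/c at an unadjusted p under 0.05, and the median log2 fold change was 0.27. Libraries did not overlap for 3 genes, 11.1% of the 27, against 13.9% of all genes tested, and 5.45% of all genes passed the unadjusted threshold. The coactivator β-catenin, Ctnnb1, had 390, 391 and 349 CPM in BALB/c and 270, 336 and 81.0 CPM in SKG, where replicate 3 was far the lowest. Its log2 fold change was −0.72 ± 0.47 (SE), with an adjusted p of 0.987 in edgeR's test. Its relative plakoglobin, Jup, overlapped at 188 CPM in BALB/c and 272 CPM in SKG on average. Aes, a short TLE-family protein, had 65.4, 87.9 and 90.1 CPM in BALB/c and 154, 123 and 221 CPM in SKG, a log2 fold change of 1.03 ± 0.27 (SE) with an adjusted p of 0.686. Nlk, a kinase that phosphorylates TCF/LEF proteins, stood at 21.8 CPM in BALB/c and 47.5 CPM in SKG on average, with a log2 fold change of 1.13 ± 0.45 (SE), an adjusted p of 0.895 in edgeR's test and 30.5 CPM in the highest BALB/c library against 31.1 CPM in the lowest SKG library. Of the full-length corepressors, Tle3 was the most abundant at 139 and 168 CPM, and it overlapped. The 6 tested genes of the β-catenin destruction complex (Apc, Axin1, Gsk3a, Gsk3b, Csnk1a1 and Btrc) all overlapped, with fitted log2 fold changes between 0.09 and 0.43. Axin2, a common target of Wnt signaling, had at most 52 reads in any library, and of the 10 Frizzled receptors only Fzd3 had enough reads to be tested.

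Genes tied to TCF-1 or LEF-1 in T cells, as targets or in shared programs, numbered 24, of which 18 were tested. Again 0 were called in edgeR's test, 2 were higher in SKG and 1 in BALB/c at an unadjusted p under 0.05, libraries did not overlap for the same 3 genes, and the median log2 fold change was 0.31. Those 3 are 16.7% of the 18, against 13.9% of all genes whose libraries did not overlap and 5.45% at the unadjusted threshold. Satb1, a chromatin organizer of thymocytes, had 237, 357 and 234 CPM in BALB/c and 907, 599 and 1153 CPM in SKG, a log2 fold change of 1.68 ± 0.29 (SE) with an adjusted p of 0.617, close in size to that of Tcf7. Slamf6, an adhesion receptor used in iNKT selection, had 2450 to 2877 CPM in BALB/c and 2962 to 3631 CPM in SKG, a log2 fold change of 0.34 ± 0.13 (SE) with an adjusted p of 0.869 in edgeR's test. Myc, the growth regulator, went the other way, with 426, 381 and 373.5 CPM in BALB/c and 143, 173 and 121 CPM in SKG, a log2 fold change of −1.43 ± 0.18 (SE) with an adjusted p of 0.328. Other genes of the list overlapped, among them Gata3, Myb, Bcl11b, Id3 and Zbtb16, and Eomes and Prdm1, like Tbx21, had 0 reads in all 6 libraries. The original study, which used DESeq2 at the same thresholds, named Tcf7, Satb1, Myc and Runx3 among its differentially expressed genes. It named Klf2 and Egr2 as well. These are the same libraries, so the presence of these genes here is not independent evidence.

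Genes tied to TOX in T cells numbered 15, of which 12 were tested, with 0 called in edgeR's test, 2 higher in SKG and 0 in BALB/c at an unadjusted p under 0.05, and a median log2 fold change of 0.17. Libraries did not overlap for 3 genes of the 12, and the shares of all genes tested were 5.45% at the unadjusted threshold and 13.9% without overlap. Nfatc1, a transcription factor activated by calcium signals from the TCR, had 1154, 1176 and 1170 CPM in BALB/c and 1869, 2633 and 1829 CPM in SKG, a log2 fold change of 0.85 ± 0.17 (SE) with an adjusted p of 0.617. Runx3, a factor of the CD8 lineage, was near the floor in BALB/c, with 0, 0 and 5 reads, against 60, 403 and 83 reads in SKG. Nr4a2, an early gene of TCR signaling, had 172, 110 and 54.3 CPM in BALB/c and 24.2, 47.4 and 2.57 CPM in SKG, with a log2 fold change of −2.18 ± 0.97 (SE) and an adjusted p of 0.947 in edgeR's test. Egr2, which marks recent TCR signaling in stage 0 cells and is not in this list, lay between 1097 and 1546 CPM in BALB/c and between 493 and 956 CPM in SKG. The log2 fold change of Egr2 was −0.80 ± 0.27 (SE), with an adjusted p of 0.834 in edgeR's test. The related early genes Nr4a1 and Nr4a3 overlapped, with means of 276 and 234 CPM for Nr4a1 and 3.0 and 11.1 CPM for Nr4a3 in BALB/c and SKG, and Tox overlapped as well. Pdcd1, which encodes the receptor PD-1, was abundant and overlapped, with means of 1905 and 2088 CPM, while Lag3 and Havcr2 had at most 8 reads in any library.

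**Figure D4:**
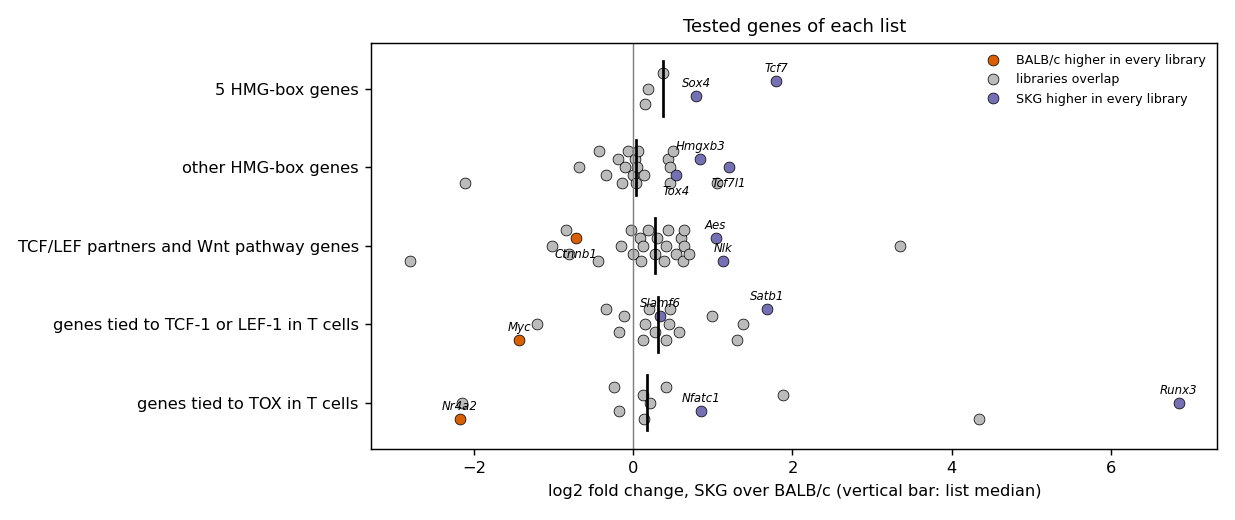
Each point is the log2 fold change (SKG over BALB/c) of 1 tested gene, by list, with a vertical bar at the list's median; orange and purple points are genes whose libraries did not overlap. Tcf7 at 1.79 and Satb1 at 1.68 are the largest such values with SKG higher apart from Runx3, whose fitted value rests on 5 reads in BALB/c, and Nr4a2 at −2.18 and Myc at −1.43 lie on the other side.

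The genes whose levels followed each HMG-box gene most closely were found by Pearson's r of log2 CPM over the 6 libraries, among 8377 genes with a mean of at least 10 CPM. These values are descriptive, since with 6 libraries of 2 genotypes many genes reach a high r and all points share the same libraries and depths. The closest to Tcf7 were Mbtd1 (r = 0.9787), Gm14150 (0.9785) and Zfp746 (0.9749). For Lef1 they were Ube4a (0.965), Dbt (0.959) and Sh3rf1 (0.954), and for Tox they were Cc2d1a (0.985), Mex3a (0.982) and Qpctl (0.979). For Tox2 they were Fam53a (0.982), Slc43a2 (0.976) and Psmd2 (0.974). The genes closest to Sox4, namely P2rx7 (0.996), Hectd3 (0.995) and Ptpra (0.993), share its low value in BALB/c replicate 1. No gene of the HMG-box family was among them.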

How the data were processed

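Poly(A)+ RNA of about 1000 sorted cells per library was amplified; the labels name SMART-Seq v4, whereas the methods name another kit. The authors aligned reads of 50 nt to GRCm38 with HISAT2 2.1.0 and counted them on exons with featureCounts (Subread 1.4.4), ignoring strand and leaving out reads mapped with a quality below 10. The deposited values are whole read counts without normalization. A second deposited table, the authors' DESeq2 comparison, was not used. The analysis used edgeR 4.0.16 under R 4.3.3: filterByExpr, TMM, one fit of all 6 libraries without covariates, quasi-likelihood F test and Benjamini-Hochberg adjustment over 12312 genes. Fits of edgeR and DESeq2 were also run on simulated counts with planted changes, and their outcome is not used here. Alternatives were DESeq2 1.42.0, limma 3.58.1 (voom), other scalings and filters, replicate blocks and leaving out each library. Exon and coding lengths came from GENCODE by symbol, promoters from RefSeq.

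Genes named are the HMG-box genes, the genes of each list with the lowest p among those whose libraries did not overlap (at most 2 a direction), closest correlates, and markers; the other pathway and family genes given as examples were chosen after their values were seen. The members and lists were chosen with earlier results of these data known. Residuals of same-numbered libraries correlated at −0.145 to 0.0029, and no pairing was used. Depth was 37176544 to 43115544 reads, and PCR copies cannot be told from separate molecules.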

Additional observations from a re-analysis of the deposited data

How the results depend on the processing

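The 5 genes kept a positive log2 fold change under every alternative that was run. Over the fits leaving out one library each, the log2 fold change was 1.61 to 2.22 for Tcf7, 0.06 to 0.24 for Lef1, 0.09 to 0.29 for Tox, 0.07 to 0.54 for Tox2 and 0.48 to 0.98 for Sox4, with 0 genes called, and the log2 difference of the ratio of Tcf7 to Lef1 was 1.46 to 2.05. DESeq2 called 370 genes without shrinkage (177 higher in SKG, 193 in BALB/c) and 231 with it (118 and 113), and 1 of the 5 genes in each, Tcf7, with a log2 fold change of 1.82 (adjusted p = 0.000921) and 1.69 (adjusted p = 0.00105). The adjusted p of edgeR's test was 0.617. DESeq2 gave a p for 24420 genes and adjusted it only over those kept by its own default filter on low means. In edgeR's test that adjusted p was 0.186 with low counts left in. It was 0.195 when genes needed at least 10 reads in every library of either genotype. Over the fits leaving out one library it went from 0.253 (without BALB/c replicate 1) to 0.99984 (without BALB/c replicate 2). The cause of the difference between the tools was not tested. DESeq2 without shrinkage also moved the median of all genes to 0.12, and relative to it Tcf7 stood at 1.70 and Sox4 at 0.69. With low counts left in, edgeR called 2 genes, both higher in SKG and neither of them a member. The median of the other HMG-box genes was 0.29 with low counts left in, 0.30 under DESeq2 and −0.0013 to 0.18 without one library, that of genes tied to TCF-1 or LEF-1 was 0.11 to 0.30 without one library, lowest without BALB/c replicate 2, that of genes tied to TOX was 0.45 under DESeq2 and 0.07 to 0.31 without one library (lowest without BALB/c replicate 2, highest without BALB/c replicate 1), and that of the TCF/LEF partners was 0.14 (without BALB/c replicate 1) to 0.49 (without BALB/c replicate 3). Replicate numbers do not pair these libraries, and with the title numbers as a replicate block the log2 fold change of Tcf7 was 1.88, that of Sox4 was 0.89 and 0 genes were called. With the library numbers as the block, 0 genes were called and the values were 1.81 for Tcf7, 1.17 for Sox4, 0.24 for Tox, 0.10 for Tox2 and 0.07 for Lef1. With 3 libraries a genotype, a difference of the size fitted for Lef1 or Tox cannot be told from none, and no permutation test can go below 0.1.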
